A study of Mus musculus with 18 samples.

Results

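The genes described here encode the RANK and M-CSF receptors, their ligands and 3 proteins tied to RANK. They were chosen by name, as the lines of the deposited table whose gene symbol was Tnfrsf11a, Tnfsf11, Tnfrsf11b, Lgr4, Csf1r, Csf1, Il34 or Traf6, which gave 8 genes of 34745. All 8 passed the filter on low counts that left 14241 genes for testing. RNA was sequenced from mouse bone marrow-derived macrophages, which are osteoclast precursors grown out of marrow with macrophage colony-stimulating factor (M-CSF). Cells labelled wild type (WT) came from littermates of the mice labelled Zmat1 knockout (KO), in which Zmat1 is deleted in the whole animal on a C57BL/6 background, and every culture received M-CSF. Day 0 cultures had M-CSF alone, and the other cultures had M-CSF with receptor activator of NF-kB ligand (RANKL) for 1 or 3 days. This made 6 groups of 3 libraries. No group had M-CSF alone for 1 or 3 days, so RANKL and time in culture cannot be told apart. The labels give no age and do not say whether the libraries of a group came from separate animals, so the p-values measure the spread between these libraries, which may be technical.

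Osteoclasts form from cells of the macrophage line when 2 extracellular signals meet on the same precursor. M-CSF (Csf1) and the other ligand of the same receptor, encoded by Il34, bind the tyrosine kinase encoded by Csf1r and keep the precursors alive. RANKL (Tnfsf11) binds RANK (Tnfrsf11a), whose cytoplasmic tail recruits the adaptor encoded by Traf6 and starts NF-kB and MAP kinase signalling. Osteoprotegerin (Tnfrsf11b) is a soluble decoy receptor that holds RANKL away from RANK, and Lgr4 encodes a membrane receptor for R-spondins that has also been described as a receptor for RANKL. In marrow, RANKL, osteoprotegerin and M-CSF are made largely by stromal and osteoblast-lineage cells, whereas RANK and the M-CSF receptor are carried by the precursors. RANKL and M-CSF were supplied as proteins in these cultures, so the transcript levels below are those of the cells' own genes.

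The library totals ran from 13789775 to 17559958 counts. Zmat1 was counted in every library, between 32 and 91 times in the libraries labelled WT and between 49 and 99 times in those labelled KO, so its counts did not follow the labels. These counts cover the whole gene and do not show which part was deleted, and directions are given by label only. A pair of WT day 1 libraries carried the number 1 and none the number 3. Titles with a double hyphen marked 5 libraries (WT day 0 replicate 1, one WT day 1 library numbered 1, KO day 0 replicate 2 and KO day 1 replicates 1 and 2), which had the 5 lowest TMM scaling factors, between 0.8144 and 0.8886. Osteoclast markers marked the day 3 cultures. Their summed level, over 10 genes, was 114 to 890 CPM (counts relative to library size after TMM adjustment) on day 0 and 8013 to 22706 CPM on day 3. The transcript of Calcr, the calcitonin receptor, was at 0 in all libraries of days 0 and 1 and at 6.68 CPM or more on day 3. The 10 macrophage markers summed to 26585 to 56187 CPM on day 0. Adgre1 among them, the gene of the F4/80 antigen, stood at 1482 to 1928 CPM on day 0.

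The 8 genes lay on 7 chromosomes of GRCm38. Tnfrsf11a (ENSMUSG00000026321) was on chromosome 1 at 105780718 to 105847981, and Tnfsf11 (ENSMUSG00000022015) was on chromosome 14 at 78277445 to 78308043. Tnfrsf11b (ENSMUSG00000063727) was on chromosome 15 at 54250619 to 54278484, and Lgr4 (ENSMUSG00000050199) was on chromosome 2 at 109917647 to 110014257. Traf6 (ENSMUSG00000027164) was also on chromosome 2, at 101678429 to 101701669. Csf1 (ENSMUSG00000014599) was on chromosome 3 at 107741048 to 107760469, and Il34 (ENSMUSG00000031750) was on chromosome 8 at 110741829 to 110805924. Csf1r (ENSMUSG00000024621) was on chromosome 18 at 61105572 to 61132149. All are protein-coding genes, and each had a single value per library for the whole gene, with exons and untranslated parts not told apart. No other gene of the table overlapped Tnfrsf11a, Tnfsf11, Tnfrsf11b, Csf1, Traf6 or Lgr4. Csf1r overlapped Hmgxb3, which had 27.6 to 47.6 CPM beside 1166 to 7290 CPM of Csf1r, and the genes overlapping Il34 reached at most 0.0596 CPM.

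The order of the 8 genes per unit of transcript length was read from the deposited FPKM values, and no test was made between genes. Csf1r was the highest in every group, from a mean of 893 ± 248 FPKM (SD, n = 3) in WT day 0 to 243 ± 12.5 FPKM in KO day 3, and its libraries did not overlap those of any other of the 8 genes. Csf1, the ligand, came next in every group, with means from 10.5 FPKM in WT day 0 to 41.8 FPKM in KO day 3. Its libraries overlapped those of the next gene in the order in 5 of 6 groups, the exception being KO day 1. Tnfrsf11a followed in the 3 WT groups. In the 3 KO groups Tnfrsf11b followed and Tnfrsf11a came after it, but the libraries of these neighbours overlapped in each of them. Traf6 stood at 4.98 to 10.3 FPKM by group mean, in place 4 or 5. The lowest places were held by Tnfsf11, Lgr4 and Il34, whose group means all lay between 0.0860 and 2.51 FPKM.

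**Figure D1:**
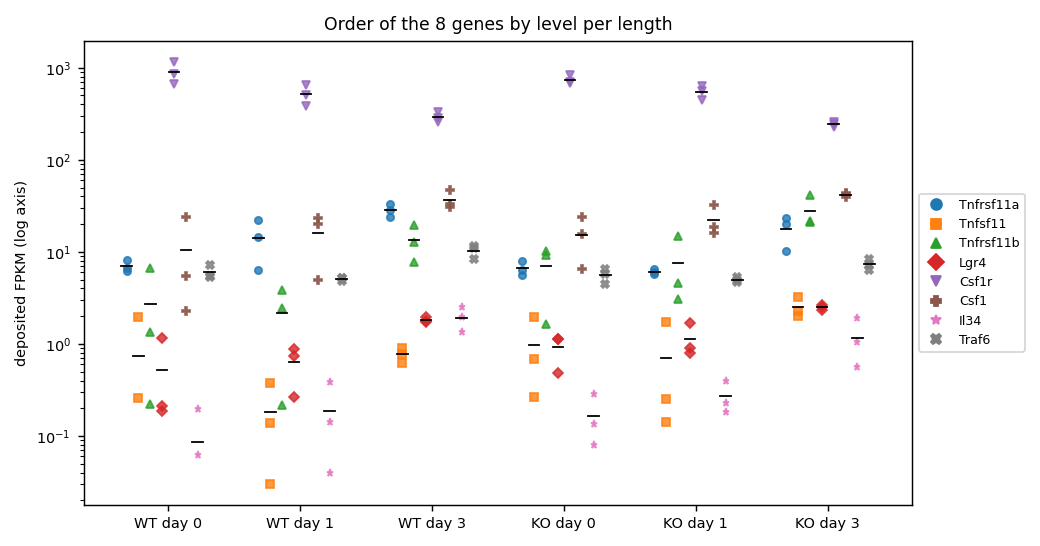
Deposited FPKM of the 8 genes (log axis) by group, with 1 point per library and a short bar at the mean of 3 libraries; the 2 values of 0 (Tnfsf11 and Il34 in WT day 0 replicate 1) cannot be drawn on this axis. Csf1r stands alone at the top in all 6 groups, and Tnfsf11, Lgr4 and Il34 lie at the bottom.

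The ratio of receptor to ligand within the M-CSF pair was smaller on day 3, given here as a description. The FPKM of Csf1r was 369, 214 and 28.2 times that of Csf1 in the WT day 0 libraries and 35.2, 104 and 44.2 times that of Csf1 in the KO day 0 libraries. On day 3 it was 7.07 to 8.62 times in the WT libraries and 5.47 to 6.41 times in the KO libraries, below every library of days 0 and 1 of either label. For RANKL and its decoy, Tnfrsf11b had a higher FPKM than Tnfsf11 in each of the 18 libraries, by 3.41 to 27.8 times in the 17 where Tnfsf11 was above 0. Tnfrsf11b exceeded Tnfrsf11a in FPKM in no WT library, and in 5 of the 9 KO libraries.

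RANK was one of the genes that rose from day 0 to day 3. In the libraries labelled WT, Tnfrsf11a stood at 45.3, 44.3 and 53.6 CPM on day 0, at 134, 49.2 and 89.0 CPM on day 1 and at 153, 131 and 172 CPM on day 3. In the libraries labelled KO it stood at 52.0, 46.8 and 36.1 CPM on day 0, at 40.5, 42.7 and 39.0 CPM on day 1 and at 107, 125 and 59.5 CPM on day 3. The day 3 libraries lay above the day 0 libraries of their label without overlap, and the double-hyphen WT day 1 library, at 49.2 CPM, lay among the day 0 libraries. From day 0 to day 3 the level rose 3.18-fold in WT (log2 fold change 1.67, SE 0.31, edgeR adjusted p = 0.00054) and 2.16-fold in KO (1.11, SE 0.30, edgeR adjusted p = 0.0093). Of the 8 genes, 5 were called in the WT comparison beside 50.2% of all genes tested, and 3 in the KO comparison beside 42.5%. Day 3 and day 0 libraries did not overlap for 5 of the 8 genes in WT, beside 62.5% of all genes, and for 6 of the 8 in KO, beside 58.8%.

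Traf6, the adaptor of RANK, moved little after TMM scaling. Its 9 WT libraries stood at 55.6, 66.9 and 49.6 CPM on day 0, at 44.1, 56.3 and 41.9 CPM on day 1 and at 82.7, 63.4 and 84.2 CPM on day 3. Its KO libraries stayed between 44.2 and 62.8 CPM on all 3 days. In WT the day 3 level was 1.34-fold that of day 0 (log2 fold change 0.42, SE 0.15, edgeR adjusted p = 0.034), although WT day 3 replicate 2 lay below WT day 0 replicate 2. That call was lost without WT day 0 replicate 1 or 3 or WT day 3 replicate 1 or 3, with adjusted p between 0.070 and 0.12, and without the double-hyphen libraries (adjusted p = 0.054). In KO the log2 fold change was 0.10 (95% interval -0.22 to 0.43, edgeR adjusted p = 0.61). With scaling to total counts the values were larger, at 0.79 in WT (edgeR adjusted p = 0.0013) and 0.39 in KO (edgeR adjusted p = 0.065).

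Lgr4 stood at 1.32, 1.39 and 7.44 CPM in the WT day 0 libraries, at 4.39, 2.00 and 5.31 CPM on day 1 and at 8.93, 10.4 and 8.92 CPM on day 3. In KO it stood at 7.20, 3.46 and 7.06 CPM on day 0, at 5.51, 6.23 and 9.81 CPM on day 1 and at 13.1, 12.4 and 14.7 CPM on day 3. The day 3 libraries were above all day 0 libraries in both labels, and WT day 0 replicate 3 was well above its fellow WT day 0 libraries. The change from day 0 to day 3 was 2.76-fold in WT (log2 fold change 1.46, SE 0.55, edgeR adjusted p = 0.038) and a log2 difference of 1.18 in KO (SE 0.54, edgeR adjusted p = 0.089). The WT call was lost in 5 of the 6 fits that left out 1 of the libraries compared, with adjusted p up to 0.12, and without the double-hyphen libraries (0.075). It was held, at a log2 fold change of 2.81, without WT day 0 replicate 3.

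The windows upstream of the 3 genes that were higher on day 3 in WT and that the promoter table holds are shown, so that the base composition of a RANK promoter can be read beside those of its adaptor and of Lgr4. Each line gives the 250 bases before the RefSeq start (GRCm38.p6, 5′ to 3′ on the gene's strand, all on the plus strand), with CG dinucleotides in capitals. The windows are chr1:105780473-105780722, chr2:101678170-101678419 and chr2:109917397-109917646.
Tnfrsf11a: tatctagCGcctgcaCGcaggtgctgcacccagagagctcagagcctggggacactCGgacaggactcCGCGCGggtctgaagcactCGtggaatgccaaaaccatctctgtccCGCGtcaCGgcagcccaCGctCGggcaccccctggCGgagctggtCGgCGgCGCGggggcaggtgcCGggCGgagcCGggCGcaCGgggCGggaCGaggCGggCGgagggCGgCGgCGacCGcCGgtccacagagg
Traf6: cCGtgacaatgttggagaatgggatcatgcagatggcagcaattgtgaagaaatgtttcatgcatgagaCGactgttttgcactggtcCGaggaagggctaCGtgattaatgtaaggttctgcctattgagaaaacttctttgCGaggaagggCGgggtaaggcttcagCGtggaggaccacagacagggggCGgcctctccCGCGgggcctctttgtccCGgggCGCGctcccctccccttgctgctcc
Lgr4: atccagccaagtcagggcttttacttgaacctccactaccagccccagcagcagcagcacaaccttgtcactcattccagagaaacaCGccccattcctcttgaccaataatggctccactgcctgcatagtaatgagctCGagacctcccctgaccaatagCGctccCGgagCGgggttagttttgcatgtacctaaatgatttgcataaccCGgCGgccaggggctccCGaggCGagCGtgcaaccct
The RANK window held 31 CG dinucleotides and 73.6% G or C, above 94.7% of 32851 promoter windows of the same length, whose median was 52.4%. Traf6 held 13 CG dinucleotides and 56.4% G or C, and Lgr4 held 10 and 55.6%. Both strands were searched for GAGGAAGT, a letter pattern of the myeloid factor PU.1, which 2.44% of all windows held, and for TGANTCA, the pattern of AP-1, which 6.75% held. Neither was found in the 3 windows, or in the windows of Tnfsf11 and Csf1.

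RANKL itself was scarcely transcribed. Tnfsf11 stood at 0, 0.619 and 4.58 CPM in WT day 0, at 0.301, 0.0833 and 0.827 CPM in WT day 1 and at 1.19, 1.76 and 1.46 CPM in WT day 3. In KO it stood at 1.57, 0.692 and 4.51 CPM on day 0, at 0.641, 0.358 and 3.69 CPM on day 1 and at 4.35, 6.30 and 4.14 CPM on day 3. A single library was high on day 0 in either label, replicate 3 in each case. The log2 fold change from day 0 to day 3 was -0.25 in WT (95% interval -2.57 to 2.07, edgeR adjusted p = 0.86) and 1.12 in KO (-1.15 to 3.39, edgeR adjusted p = 0.41). The sign in WT turned to 2.22 without WT day 0 replicate 3.

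Osteoprotegerin transcripts differed more between libraries than any other of the 8 that was counted in all of them, and ran from 0.742 to 106 CPM. Tnfrsf11b stood at 0.742, 4.02 and 19.7 CPM in WT day 0, at 10.5, 0.750 and 6.89 CPM in WT day 1 and at 30.6, 48.6 and 18.3 CPM in WT day 3. In KO it stood at 27.0, 5.46 and 29.9 CPM on day 0, at 14.6, 9.81 and 40.6 CPM on day 1 and at 52.5, 51.3 and 106 CPM on day 3. The lowest values of each label were in double-hyphen libraries, the KO day 3 libraries were above the KO day 0 libraries, and in WT the day 0 and day 3 libraries overlapped. The log2 fold change from day 0 to day 3 was 1.99 in WT (SE 0.97, edgeR adjusted p = 0.099) and 1.75 in KO (SE 0.94, edgeR adjusted p = 0.15), so neither was called. Without WT day 0 replicate 3 the WT value was 3.78 and was called (edgeR adjusted p = 0.010), and with title style as a term it was 1.66 and was also called (edgeR adjusted p = 0.023).

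**Figure D2:**
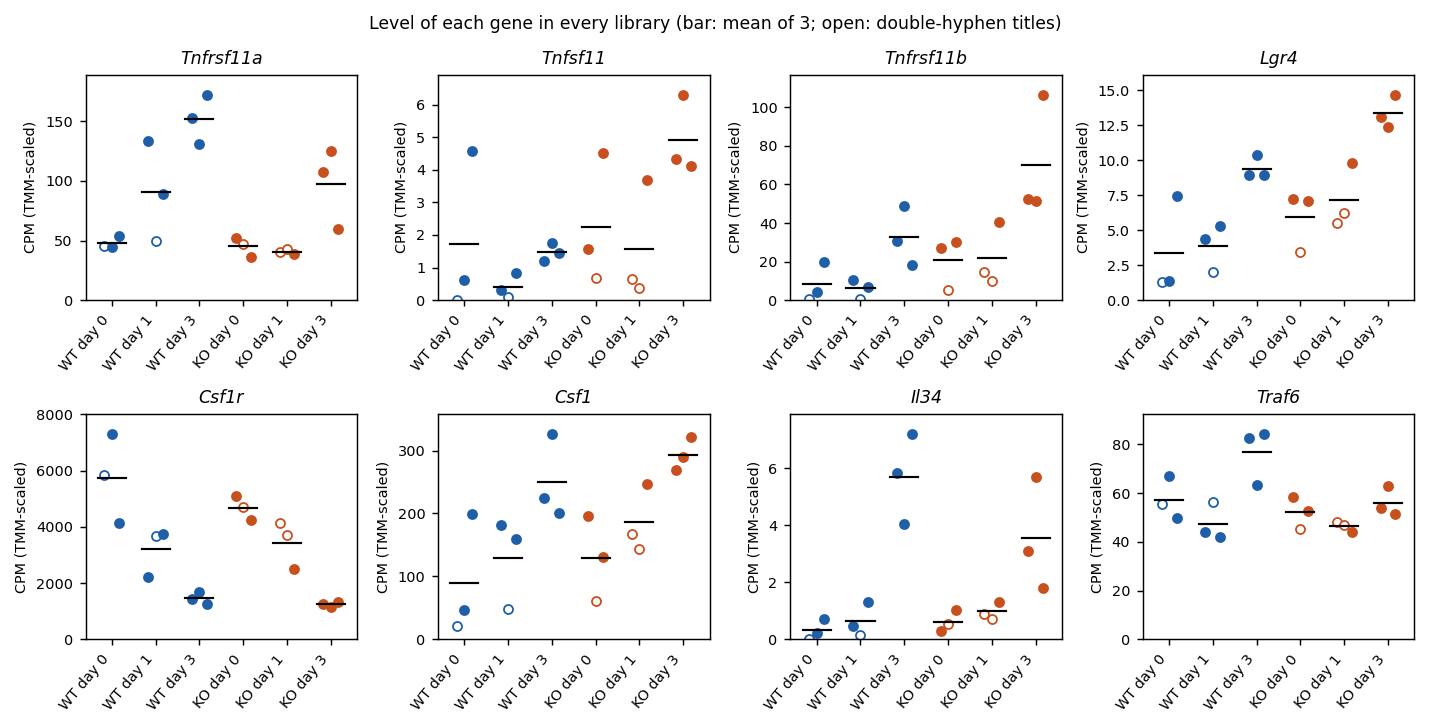
CPM of each of the 8 genes (linear axes from 0) in the 6 groups, with 1 point per library, a bar at the mean of 3 and open points for the 5 double-hyphen libraries. Tnfrsf11a is at 131 to 172 CPM in WT day 3 and at 44.3 to 53.6 CPM in WT day 0, while Csf1r falls from 4140 to 7290 CPM to 1256 to 1698 CPM.

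The M-CSF receptor fell. Csf1r stood at 5830, 7290 and 4140 CPM in WT day 0, at 2200, 3664 and 3750 CPM in WT day 1 and at 1426, 1698 and 1256 CPM in WT day 3. In KO it stood at 5093, 4691 and 4241 CPM on day 0, at 4135, 3697 and 2489 CPM on day 1 and at 1274, 1166 and 1316 CPM on day 3. Every day 3 library was below every library of days 0 and 1. The level on day 3 was 3.94-fold lower than on day 0 in WT (log2 fold change -1.98, SE 0.26, edgeR adjusted p = 5.4e-05) and 3.73-fold lower in KO (-1.90, SE 0.26, edgeR adjusted p = 0.00012). Of the 10 macrophage markers, 7 fell in each label (Itgam, Mertk, Adgre1, Mrc1, Lyz2, Cd14 and Fcgr1) and 3 were not called. Of all genes tested 26.5% were called lower in WT and 22.3% in KO. In these bulk cultures fewer cells of a type and less RNA per cell cannot be told apart.

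Csf1, the ligand that was also supplied as protein, stood at 21.4, 46.2 and 199 CPM in WT day 0, at 181, 48.7 and 159 CPM in WT day 1 and at 225, 326 and 201 CPM in WT day 3. In KO it stood at 196, 60.9 and 130 CPM on day 0, at 167, 144 and 246 CPM on day 1 and at 270, 289 and 321 CPM on day 3. WT day 3 lay above WT day 0 by a margin of less than 2 CPM, because WT day 0 replicate 3 was high. The log2 fold change was 1.49 in WT (SE 0.66, edgeR adjusted p = 0.072) and 1.18 in KO (SE 0.65, edgeR adjusted p = 0.16), and neither was called. Without WT day 0 replicate 3 the WT value was 2.91 and was called (edgeR adjusted p = 0.0012), and it was also called by the DESeq2 Wald test (1.53, adjusted p = 0.032). With total counts (1.81, edgeR adjusted p = 0.046) or title style as a term (1.27, edgeR adjusted p = 0.025) it was called as well.

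Il34 was nearly silent before RANKL and rose, from a low level. It stood at 0, 0.232 and 0.715 CPM in WT day 0, which is 0 to 10 counts, at 0.481, 0.167 and 1.31 CPM in WT day 1 and at 5.83, 4.06 and 7.18 CPM in WT day 3. In KO it stood at 0.285, 0.538 and 1.02 CPM on day 0, at 0.898, 0.716 and 1.32 CPM on day 1 and at 3.10, 5.69 and 1.81 CPM on day 3. All day 3 libraries lay above all libraries of days 0 and 1. The rise from day 0 to day 3 was 17.1-fold in WT (log2 fold change 4.10, SE 0.84, edgeR adjusted p = 0.0012) and 5.69-fold in KO (2.51, SE 0.77, edgeR adjusted p = 0.018). Without WT day 0 replicate 3 the WT log2 fold change was 5.51, and without KO day 0 replicate 3 the KO value was 3.11, both called. The KO call was lost without KO day 0 replicate 1 (log2 fold change 2.19, adjusted p = 0.068), KO day 0 replicate 2 (2.45, 0.056) or KO day 3 replicate 2 (1.99, 0.082). At its day 3 level Il34 remained well under Csf1, whose FPKM was 12.2 to 35.0 times higher in WT and 22.1 to 77.1 times higher in KO.

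**Figure D3:**
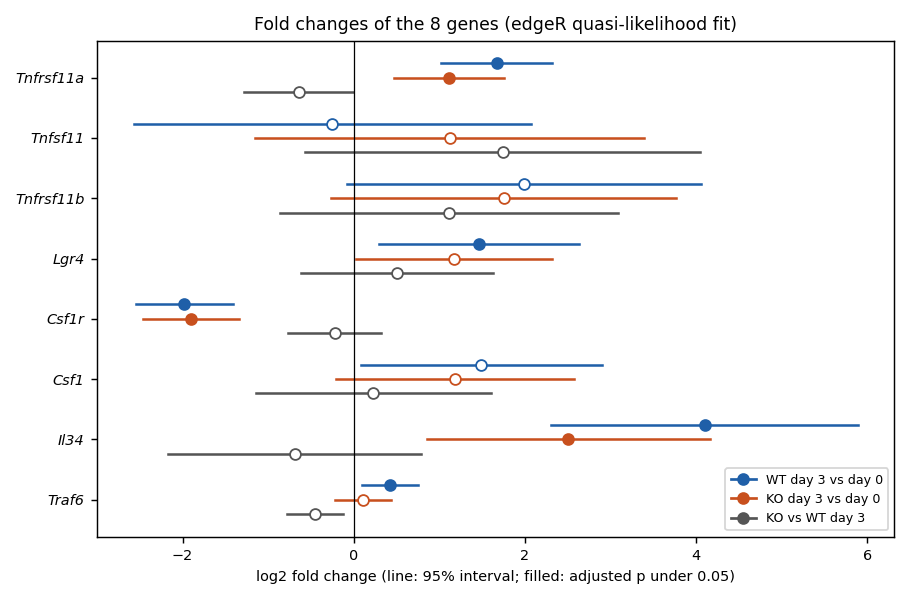
Log2 fold changes of the 8 genes in 3 comparisons (edgeR quasi-likelihood fit), with lines for 95% intervals and filled points for adjusted p under 0.05. Csf1r lies at -1.98 and -1.90 from day 0 to day 3, Il34 at 4.10 and 2.51, and the intervals of Tnfsf11 and Tnfrsf11b are the widest.

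After 1 day of RANKL none of the 8 genes was called in either label by edgeR, beside 2.35% of all genes in WT and 0.0211% in KO. At an unadjusted p under 0.05 there were 2 in WT and 0 in KO, and the DESeq2 Wald test called 2 in WT (Tnfrsf11a and Csf1r) and 0 in KO. Tnfrsf11a had a log2 fold change of 0.92 in WT (SE 0.30, edgeR adjusted p = 0.10) and Csf1r of -0.84 (SE 0.26, edgeR adjusted p = 0.086). Without the double-hyphen WT day 1 library these were 1.22 (edgeR adjusted p = 0.012) and -0.94 (edgeR adjusted p = 0.0496), and both were called. In KO the same genes had values of -0.14 (95% interval -0.78 to 0.50) and -0.44 (-0.99 to 0.10). The other 6 genes ranged from -2.07 (Tnfsf11) to 1.01 (Il34) in WT and from -0.53 (Tnfsf11) to 0.67 (Il34) in KO, with wide intervals for the genes of low counts.

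The design also asks whether the label alone made a difference on a given day. None of the 8 genes was called between KO and WT by edgeR on day 0, 1 or 3, beside 0.119%, 0.112% and 0.14% of all genes, and the DESeq2 Wald test called 0 as well. At an unadjusted p under 0.05 there were 0 genes on day 0, Tnfrsf11a on day 1, and Tnfrsf11a and Traf6 on day 3. The exception on leaving out a library on day 0 was Lgr4, whose log2 difference of 0.80 (SE 0.55, edgeR adjusted p = 0.81) became 2.12 and was called without WT day 0 replicate 3 (edgeR adjusted p = 0.040). For RANK all KO libraries lay below all WT libraries on both RANKL days, but the log2 difference passed the test on neither, at -1.16 on day 1 (SE 0.30, edgeR adjusted p = 0.36) and -0.64 on day 3 (SE 0.30, edgeR adjusted p = 0.46). On day 1 the value without the double-hyphen WT library was -1.45 and was called (edgeR adjusted p = 0.023). For Traf6 on day 3 the difference was -0.46 (SE 0.15, edgeR adjusted p = 0.33), again with no overlap and no call. Libraries of the labels did not overlap for 2 of the 8 genes on day 1 (Tnfrsf11a and Lgr4), beside 12.6% of all genes tested. On day 3 this held for 5 of the 8 (Tnfrsf11a and Traf6 lower in KO, and Tnfsf11, Tnfrsf11b and Lgr4 higher in KO), beside 29.2%.

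The difference between the labels in the change from day 0 was tested as an interaction. None of the 8 genes was called for day 3 minus day 0, beside 0% of all genes, none had an unadjusted p under 0.05, and the DESeq2 Wald test called none of the 8. The estimates were -0.56 for Tnfrsf11a (95% interval -1.46 to 0.35), -0.32 for Traf6 (-0.78 to 0.15), 0.08 for Csf1r (-0.69 to 0.85) and -1.59 for Il34 (-3.96 to 0.78). For day 1 minus day 0, a test added after the values were seen, Tnfrsf11a had an estimate of -1.07 (95% interval -1.97 to -0.16, edgeR adjusted p = 1.0) and was the only one of the 8 with an unadjusted p under 0.05 (0.024). No gene was called there either, 0% of those tested, by edgeR or by the DESeq2 Wald test.

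Markers of stromal and osteoblast-lineage cells, the usual source of RANKL, osteoprotegerin and M-CSF, moved with Tnfrsf11b, Csf1 and Lgr4. Of 20 such genes Bglap, which encodes osteocalcin, had 3 or fewer counts in every library, and Spp1 is left out of the sums here because osteoclasts express it too, a choice made after its values were seen. The summed level of the other 19 was 140, 685 and 5497 CPM in WT day 0, 3622, 371 (double hyphen) and 3163 CPM in WT day 1 and 14002 to 17483 CPM in WT day 3. In KO it was 4161, 1301 and 4362 CPM on day 0, 4445, 3119 and 10561 CPM on day 1 and 24838 to 36597 CPM on day 3. The libraries low in these markers (WT day 0 replicates 1 and 2 and the double-hyphen WT day 1 library) were also the lowest 3 of the 18 in Tnfrsf11b, Csf1 and Lgr4, and KO day 1 replicate 3, high in the markers, was the highest day 1 library in Tnfrsf11b, Csf1, Lgr4 and Tnfsf11. In WT, Tnfsf11 stood at 1.19 to 1.76 CPM on day 3, below its 4.58 CPM in WT day 0 replicate 3, where the markers were lower. The collagen gene Col1a1 stood at 29.2 to 2011 CPM in WT day 0 and at 8273 to 12061 CPM in KO day 3. From day 0 to day 3, 13 of the 18 markers tested besides Spp1 were called higher in WT, with a median log2 fold change of 2.41, and 16 of 18 in KO, with a median of 3.16. Over all genes tested 23.7% were called higher in WT and 20.2% in KO. None of the 18 was lower, and the median over all genes tested was -0.03 in WT and -0.01 in KO. The WT count fell to between 2 and 5 in the 5 fits that left out 1 of the libraries compared other than WT day 0 replicate 3 and to 2 with only the groups compared, and the KO count fell to between 4 and 10 in the 6 such fits. Tnfrsf11a stood at 44.3 to 53.6 CPM in the WT day 0 libraries, across a span of marker levels from 140 to 5497 CPM. In WT day 1 it was lowest (49.2 CPM) in the library at 371 CPM of the markers and higher (134 and 89.0 CPM) in those at 3622 and 3163 CPM. The reverse held in WT day 3, where it was lowest (131 CPM) in the library highest in the markers. In KO it was lowest on each day (36.1, 39.0 and 59.5 CPM) in replicate 3, the library highest in the markers. On days 0 and 1 of each label Csf1r was lowest in the library highest in the markers. It stood there at 4140 and 2200 CPM in WT and at 4241 and 2489 CPM in KO. On day 3 the reverse held, and Csf1r was highest in that library (1698 CPM in WT and 1316 CPM in KO). Over the 18 libraries its log2 CPM ran opposite to that of Tnfrsf11b (r = -0.657), Csf1 (-0.725) and Lgr4 (-0.763). It also ran opposite to that of Il34 (-0.855), Tnfrsf11a (-0.769), Tnfsf11 (-0.501) and Traf6 (-0.362). All of these correlations include the step from day 1 to day 3. The part of such cells in the values of these genes and of Tnfsf11 was not tested.

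**Figure D4:**
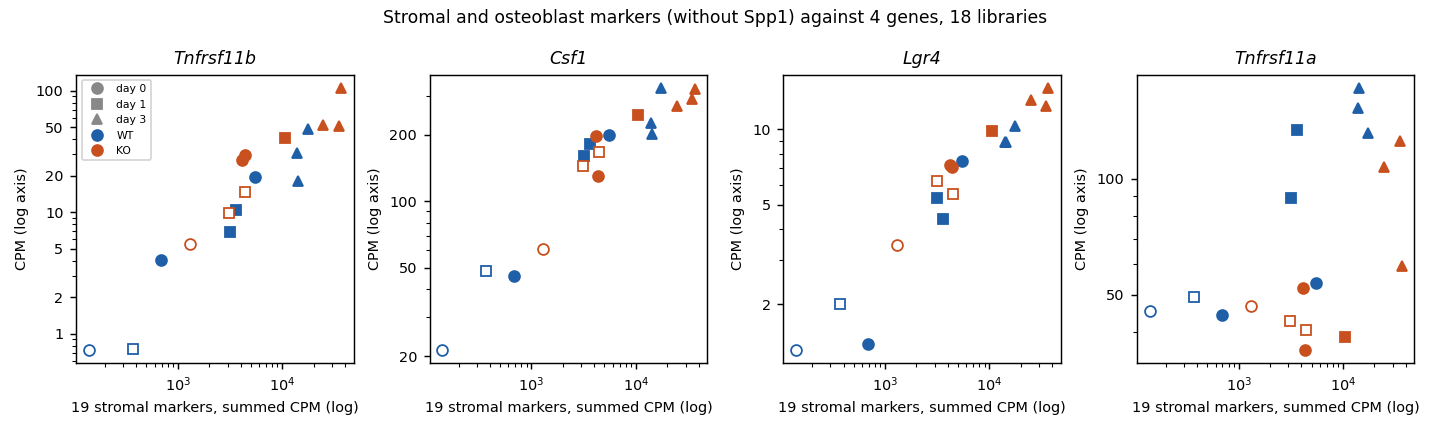
CPM of Tnfrsf11b, Csf1, Lgr4 and Tnfrsf11a against the summed CPM of 19 stromal and osteoblast markers in 18 libraries, on log axes, with colour for label, shape for day and open points for double-hyphen titles. Tnfrsf11b runs from 0.742 CPM at a marker level of 140 CPM to 106 CPM at 36597 CPM, and Tnfrsf11a is between 36.1 and 53.6 CPM in all day 0 libraries.

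Markers of neutrophils and B cells, other cells of the marrow, fell over the same days. Neutrophil markers summed to 662 to 3012 CPM in WT day 0 and 35.8 to 66.9 CPM in WT day 3, and to 3650 to 11714 CPM in KO day 0 and 97.6 to 1147 CPM in KO day 3. All 8 were called lower on day 3 in each label, beside 26.5% of all genes tested in WT and 22.3% in KO. Ngp (log2 fold change -5.93, SE 1.09), Camp (-5.60, SE 1.09) and Ltf (-5.43, SE 0.91), which encode granule proteins, fell the most in WT. Of 6 B cell markers 5 were lower in WT, among them Ighm (-5.13, SE 0.71) and Cd79b (-3.78, SE 0.56), parts of the B cell receptor, and 3 in KO. T cells are a known source of RANKL. The 6 T cell markers summed to between 37.5 CPM (WT day 3 replicate 3) and 227 CPM (KO day 1 replicate 3). In every library but KO day 3 replicate 3 only 1 of them was at or above 1 CPM. Cd3e, a chain of the T cell receptor complex, was at no more than 0.437 CPM in any library. Of the 6 markers 2 could be tested, with none called. The part of these cells in the values of the 8 genes was not tested.

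Downstream of RANK, the 30 genes of a fixed list went both ways. In WT 8 rose, 7 fell and 15 were not called, with a median log2 fold change of 0.09, and in KO 5 rose, 7 fell and 18 were not called, with a median of -0.09. Called genes were 50% of the list in WT and 40% in KO, near the 50.2% and 42.5% of all genes tested. Src, the kinase needed for the ruffled border, stood at 10.97 ± 2.47 CPM (SD, n = 3) in WT day 0 and 216 ± 42.0 CPM in WT day 3 (log2 fold change 4.30, SE 0.42, edgeR adjusted p = 7.5e-06) and rose in KO as well (2.92, SE 0.40, edgeR adjusted p = 0.00011). Traf1, another adaptor of the TRAF family, rose by 3.79 in WT and 2.52 in KO. Fos, a subunit of AP-1, rose by 2.53 in WT (SE 0.57), and in KO its value was 1.07 (SE 0.55, edgeR adjusted p = 0.12). Among those that fell were Mapk14, the p38 kinase, at -1.56 in WT and -1.23 in KO, Gab2, a docking protein of RANK, at -0.90 and -1.01, and Map3k14, the NF-kB-inducing kinase, at -0.83 and -0.55. Nfatc1, the main transcription factor of osteoclasts, was among the genes called higher in both labels. Scaling to total counts put the median of all genes at 0.33 in WT and 0.29 in KO, against -0.03 and -0.01 with TMM, and the split then was 14 higher and 3 lower in WT and 9 higher and 4 lower in KO.

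Of the 30 genes listed downstream of the M-CSF receptor, more fell than rose. In WT 3 rose, 10 fell and 17 were not called (median -0.39), and in KO 4 rose, 13 fell and 13 were not called (median -0.39). Those that fell were 33.3% of the list in WT, beside 26.5% of all genes tested, and 43.3% in KO, beside 22.3%. Pik3cd, a catalytic subunit of phosphoinositide 3-kinase, fell by 1.65 in WT and 1.61 in KO on the log2 scale, and Mapk3, the ERK kinase gene, fell by 1.29 and 1.12. Socs3, a feedback inhibitor of cytokine signalling, rose by 1.82 in WT and 2.03 in KO. Egr1, an immediate early gene, rose by 2.31 in WT, and in KO its value was 0.52 (SE 0.41, edgeR adjusted p = 0.31). Src and Gab2 are on both lists. With scaling to total counts 8 genes were called higher and 9 lower in WT, and 7 higher and 12 lower in KO.

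Genes that partner or process the proteins were tested in 12 of 14 cases, with 4 higher and 2 lower in WT and 4 higher and 3 lower in KO. Called genes were 50% of those tested in WT, near the 50.2% of all genes, and 58.3% in KO, beside 42.5%. Lgr5, the relative of Lgr4, stood at 0.119 ± 0.206 CPM in WT day 0 and 2.51 ± 0.815 CPM in WT day 3 (log2 fold change 4.23, SE 0.79). In KO it had 3 or fewer counts in each day 0 library and 7.20 ± 3.83 CPM on day 3, at least 32.6-fold higher than 3 counts in each day 0 library. Mmp14, a membrane metalloproteinase that can shed RANKL, rose by 3.51 in WT and 3.05 in KO, to 770 ± 132 CPM and 804 ± 146 CPM on day 3. Sdc1, a heparan sulfate proteoglycan, rose by 2.45 and 1.77. Tnfsf10, the gene of TRAIL, which osteoprotegerin also binds, fell from 22.9 ± 6.90 to 0.979 ± 0.322 CPM in WT (log2 fold change -4.54, SE 0.49) and by 3.56 in KO. Adam17, a sheddase, fell by 0.98 and 0.73.

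Most other cytokine and growth factor receptors fell along with Csf1r. Of 25 tested, 3 rose and 15 fell in WT (median -1.06), and 2 rose and 14 fell in KO (median -0.92). Those that fell were 60% of the list in WT, beside 26.5% of all genes tested, and 56% in KO, beside 22.3%. With the replicate number as a block, KO had 4 higher. Ccr1, a chemokine receptor, rose by 3.76 in WT and 2.00 in KO, Tgfbr1 by 0.92 and 0.63, and the interleukin receptor gene Il1r1 by 2.41 in WT, with a value of 1.54 in KO (edgeR adjusted p = 0.080). Ccr2, the monocyte chemokine receptor, fell by 4.83 in WT and 3.04 in KO, Csf3r, the receptor for granulocyte colony-stimulating factor, by 3.52 and 2.76, and Il6ra by 2.10 and 1.95. Macrophage markers behaved alike: Fcgr1, an Fc receptor, fell by 4.07 in WT and 3.34 in KO, Mertk, an efferocytosis receptor, by 2.52 and 1.85, and Cd14 by 2.44 and 2.41. On the osteoclast side 9 of 10 markers rose in each label (median 7.30 in WT and 6.25 in KO, or 6.58 and 5.47 with genes that had 3 or fewer counts in every day 0 library at their bound). Of all genes tested 23.7% were called higher in WT and 20.2% in KO. Dcstamp, the fusion protein gene, went from 0.123 ± 0.147 to 108 ± 20.4 CPM in WT, and Oscar, an immunoreceptor, from 3 or fewer counts in each library to 61.5 ± 22.8 CPM, at least 266-fold higher than 3 counts in each day 0 library. None of these lists, nor the stromal list, held a gene called between KO and WT on day 3 by edgeR, where 3 stromal markers and 7 neutrophil markers had an unadjusted p under 0.05.

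For each of the 8 genes the most alike among the 14241 tested were sought by the Pearson correlation of log2 CPM over the 18 libraries, given as a description. These points share the libraries, their depth and the step from day 1 to day 3. Tnfrsf11a was most like Lsm4 (r = 0.963) and Car8 (0.950), and Csf1r was most like Cd14 (0.992) and Serinc3 (0.988). Tnfrsf11b was closest to Map3k7cl (0.992) and Ctgf (0.989), Csf1 to Traf4 (0.988) and Nid1 (0.988), and Lgr4 to Syde1 (0.991) and Col4a1 (0.988). Il34 was close to Srgap3 (0.940), and for Tnfsf11 the closest were Adam11 (0.939) and Eva1a (0.932). The weakest likeness was that of Traf6, with Pxn (0.896) and Tbc1d2b (0.871). Among the 8 genes themselves, Csf1, Tnfrsf11b and Lgr4 were alike in pairs at r = 0.919 to 0.950, and Tnfrsf11a with Tnfsf11 at 0.178.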

How the data were processed

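Per the labels, RNA was isolated with a column kit and libraries were made with a SMARTer mRNA kit, and the submitters' processing notes name StringTie. The authors deposited whole-number counts per gene and FPKM values, which divide by gene length and library size, for 18 libraries. The aligner, counting program, strand setting and versions are not given in the sources used here. The counts gave the CPM levels and all tests, and the FPKM values served only for levels between genes. Counts were filtered (filterByExpr, 14241 genes), scaled by TMM and fitted over all 18 libraries as 6 groups with the quasi-likelihood test of edgeR 4.0.16 in R 4.3.3. P-values are 2-sided and Benjamini-Hochberg adjusted over all genes tested, and calls needed an adjusted p under 0.05. DESeq2 1.42.0 was an alternative. The edgeR script was tested on simulated data. The 8 genes and the lists were chosen with earlier results of these data known. Genes named from a list were up to 3 in each direction with the largest change in WT day 3 among called genes whose groups did not overlap and whose higher mean exceeded 1 CPM. Others named (Nfatc1, Col1a1, Adgre1, Cd3e and Bglap) were chosen after their values were seen. For 1 list and for 1 of the 8 genes, a gene that the rules for named genes select is not reported here. For Itgam, which has more than 1 identifier, the one the reference pairs with the symbol was used. For same-numbered libraries of days 0 and 3, deviations from the group means correlated at r = 0.13, 0.135 and 0.398 in KO. In WT these correlations were -0.023 to 0.111. Libraries with different numbers were not compared, and the labels do not say what a number shares. Whether the numbers pair the libraries is therefore not known, and replicate blocks served only as alternatives. Between KO days 0 and 1 r was 0.0536, 0.501 and 0.598, the higher values being those of pairs with the same title style, so there number and title style cannot be told apart. Promoter windows are from RefSeq (GRCm38.p6), which matched 5 of the 8 genes. Intervals cover the spread between libraries.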

Additional observations from a re-analysis of the deposited data

How the results depend on the processing

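The values were recomputed with no filter, a stricter filter (5 CPM in 3 libraries), DESeq2 size factors, total counts, the DESeq2 Wald test, only the groups compared, 2 replicate blocks, the title style as a term, the WT day 1 libraries numbered 1 summed (for comparisons that use them), each library left out, and, chosen after seeing the data, without the 5 double-hyphen libraries. Tnfrsf11a, Csf1r and Il34 were called for WT day 3 in all of the alternatives run for it, and Tnfrsf11a and Csf1r for KO day 3 in all of those run for it.

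The number of the 8 genes called for WT day 3 was 5, and it was 3 with only the groups compared and without the double-hyphen libraries, 6 with total counts and by the DESeq2 Wald test, 7 with title style and with the replicate block, and 3 to 6 with a library left out. For KO day 3 it was 3, and 5 with only the groups compared and 2 to 3 with a library left out. For WT day 1 it was 0, 2 by the DESeq2 Wald test, 1 with title style and 1 with the WT libraries summed, and 0 to 2 with a library left out. Between KO and WT it was 0, and 0 to 1 with a library left out on days 0 and 1, and 1 on day 3 with only the groups compared (Tnfsf11, adjusted p = 0.046). Leaving out a library gave 0 for KO day 1, KO against WT day 3 and both interactions.

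Signs turned only for values that were not called. For Tnfsf11 in WT day 3 they were 0.066 with total counts, 0.59 with the replicate block and 0.86 with the block within label, and -0.79 to 2.22 with a library left out. For Tnfrsf11b the replicate block gave 0.41 in WT day 1 and -0.10 in KO day 1, and the block within label gave 0.68 in WT day 1. For Tnfsf11 in KO day 1 title style gave 0.11 and the single-hyphen libraries 0.30. For KO against WT on day 1, Csf1r was -0.26 without the double-hyphen libraries, and Traf6 was 0.012 with the block, 0.038 with summing and 0.045 without the double-hyphen libraries. Ranges with a library left out that cross 0 were, for WT day 1, -3.06 to 0.38 (Tnfsf11), -1.06 to 1.35 (Tnfrsf11b, 0.096 without the double-hyphen library) and -0.17 to 1.53 (Lgr4). For KO day 1 they were -2.16 to 0.47, -0.78 to 0.42 and -0.018 to 0.44 for the same genes. Between labels they were -0.20 to 0.048 (Tnfrsf11a, day 0), -0.62 to 2.82 (Tnfsf11, day 0), -0.11 to 0.28 (Csf1r, day 1) and -0.11 to 0.11 (Traf6, day 1, 0.00026 without KO replicate 3). In the day 3 interaction they were -1.07 to 2.36 (Tnfsf11), -2.01 to 0.29 (Tnfrsf11b), -1.71 to 0.15 (Csf1), -0.13 to 0.27 (Csf1r) and -1.61 to 0.083 (Lgr4). The cause was not tested. For WT day 3 the block added Csf1 (1.81, adjusted p = 0.041) and Tnfrsf11b (2.66, 0.033) and, within label, Csf1 (2.13, 0.025), while Traf6 was lost (0.41, 0.064). For KO day 3 the block changed no call of the 8 genes. With 3 libraries a group, and 0 to 64 counts of Tnfsf11 in the day 0 libraries, changes of Tnfsf11 within its wide intervals were not detectable.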
